A study of Mus musculus with 4 samples.

Results

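Among 10841 cells of the ischemic mouse hemisphere that passed the quality limits, 264 carried Cd5l transcripts together with C1q transcripts and few transcripts of the resting microglial programme. Cells were chosen by their measured UMI counts. A cell was taken when it had 1 or more UMIs (unique molecular identifiers, each of which counts 1 captured transcript) of Cd5l and 10 or more of C1qa, C1qb and C1qc together. It also had to have fewer than 4 UMIs of P2ry12, Tmem119 and Gpr34 together and fewer than 2 of Mrc1. Further limits were fewer than 3 UMIs of Mki67, Top2a, Birc5, Ube2c and Cdk1, fewer than 3 of Cd3d, Cd3e, Cd3g and Trac, fewer than 3 of Cd79a, Cd79b and Ms4a1, and fewer than 30 of the MHC class II genes H2-Aa, H2-Ab1 and H2-Eb1. Since these genes chose the cells, their levels describe the choice of cells and were not tested. The 264 Cd5l+ P2ry12-low cells comprised 9 and 14 cells of the day 14 libraries and 135 and 106 cells of the day 5 libraries.

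The libraries came from C57/BL6 mice after tMCAO, a transient closure of the middle cerebral artery that is widely used to model ischemic stroke with reperfusion. Cells with high surface CD45, a leukocyte protein, were sorted from the perfused ischemic hemisphere on day 14 or day 5 and profiled with 10x Genomics 3' v2 chemistry, with 2 libraries per day. The labels do not say how many mice a library holds, and every p-value below therefore measures the spread between libraries. No library of unoperated mice was analysed here, and microglia with little CD45 would have fallen outside the sort. Totals were 9288054 and 10759904 UMIs in the day 14 libraries and 10730791 and 13610119 UMIs in the day 5 libraries. The summed Cd5l+ P2ry12-low cells held 31903 and 55810 UMIs on day 14 and 361704 and 297340 UMIs on day 5, so the day 14 values rest on far fewer molecules. Libraries shared between 5 and 16 cell barcodes in pairs, and none of these belonged to a Cd5l+ P2ry12-low cell in both libraries.

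CD5L, also known as AIM, is a secreted protein of the scavenger receptor cysteine-rich family. It is made by macrophages, where it is known as a target of the liver X receptors, and it binds lipids and cell debris. P2RY12 and TMEM119 are membrane proteins of resting microglia whose transcripts fall when microglia are activated, and Fcrls is an Fc receptor-like gene of mouse microglia. Macrophages that arise from blood monocytes after stroke also make C1q but carry monocyte genes such as Ccr2, Ly6c2 and Lyz2.

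Cd5l lies on chromosome 3 at 87357881 to 87371073 on the plus strand of GRCm38, and Fcrls lies 94.1 kb away on the minus strand, at 87250758 to 87263738. The other markers proposed for these cells are Igf1, insulin-like growth factor 1, on chromosome 10 at 87858265 to 87937042 (plus strand), and Ctsl, the lysosomal protease cathepsin L, on chromosome 13 at 64359337 to 64370890 (minus strand). Spp1, which codes for osteopontin and recurs below, lies on chromosome 5 at 104435118 to 104441050 (plus strand). All 5 positions are whole genes, exons and introns included, and the 3' chemistry counts molecules near the end of the transcript.

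The rule left out most of the cells that carried Cd5l. In all, 876 barcodes had a Cd5l UMI, and 264 of them met every condition. A further 244 failed the limit on P2ry12, Tmem119 and Gpr34 alone, 48 failed that on MHC class II alone, 30 that on the cell cycle, 21 that on C1q, 13 that on T cell genes, 9 that on Mrc1, 2 that on B cell genes and 1 the quality limit. The other 244 failed 2 or more conditions. Just inside the threshold, 72 and 76 Cd5l+ P2ry12-low cells had 2 and 3 UMIs of the P2ry12, Tmem119 and Gpr34 sum, and 63 and 53 had 0 and 1. Just outside it, 36 and 41 Cd5l-positive cells had 4 and 5 UMIs of that sum while meeting every other condition. A single Cd5l UMI was the basis for 147 of the 264 cells (55.7%), while 50 cells (18.9%) had 4 or more, up to 23.

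Cd5l transcripts were few in cells that should lack them, though few such cells came from day 5. The T cells and neutrophils counted here had fewer than 3 C1q UMIs, so barcodes mixed with C1q-positive cells were largely left out beforehand. Whatever their C1q, 42 barcodes with a Cd5l UMI had 3 or more UMIs of the T cell genes. Of 966 T cells, 895 were of day 14, and 2 had a Cd5l UMI (0.207%), at a median of 2096 UMIs per cell. On day 5 these were 0 of 32 and 1 of 39 T cells, with exact binomial 95% intervals of 0 to 10.9% and 0.0649 to 13.5%. The share was 14.8% of the 1653 cells that met all limits other than those on Cd5l and P2ry12 and had 4 or more UMIs of P2ry12, Tmem119 and Gpr34, the P2ry12-high microglia, at a median of 2975 UMIs. Among neutrophils of day 5 it was 1 of 44 (2.27%) and 3 of 101 (2.97%). Levels are given below as CPM, the UMIs of a gene scaled to a fixed total of summed UMIs of the cell set in that library (counts per 1000000). Where 4 levels follow each other they stand for day 14 replicate 1, day 14 replicate 2, day 5 replicate 1 and day 5 replicate 2. Cd5l itself stood at 596, 484, 998 and 804 CPM in the Cd5l+ P2ry12-low cells and at 7.92, 51.5, 154 and 87.6 CPM in the P2ry12-high microglia.

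The name microglia was checked against marker genes outside the rule, and the day 5 cells were set between 2 kinds of C1q-positive cells. The first kind is the P2ry12-high microglia, and the second is the 1165 cells of the same P2ry12-low gate with no Cd5l UMI, called Cd5l-zero cells here. A list of 12 homeostatic microglia genes outside the rule, among them Sall1, Sparc, Cx3cr1 and Fcrls, summed to 10594 and 10809 CPM in the Cd5l+ P2ry12-low cells of day 5. It summed to 19637 and 22492 CPM in P2ry12-high microglia and to 6754 and 9087 CPM in Cd5l-zero cells of the same libraries. A list of 19 monocyte-derived macrophage genes, among them Ccr2, Ly6c2, Lyz2 and Ms4a7, ran the other way, at 13984 and 13681 CPM against 9530 and 7496 CPM in P2ry12-high microglia and 27049 and 23151 CPM in Cd5l-zero cells. Both lists therefore placed the day 5 cells between the other sets in both libraries. These cells were nearer to Cd5l-zero cells on the microglia list and nearer to P2ry12-high microglia on the monocyte-derived list.

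Cell by cell, the same position appeared at equal depth. After each cell was thinned to 2000 UMIs, 77 and 64 of the day 5 Cd5l+ P2ry12-low cells remained. Their median was 19 and 21 UMIs of the microglia list, against 40.5 and 44 in P2ry12-high microglia and 10 and 16 in Cd5l-zero cells. Only 5.19% and 3.13% of them reached the median of the P2ry12-high microglia, while 87.0% and 65.6% reached that of the Cd5l-zero cells. Fcrls was detected in 89.6% and 92.2% of the thinned cells, while Ms4a7, a membrane protein of monocyte-derived and border macrophages, was detected in 31 of 77 and 21 of 64. Fcrls without Ms4a7 was found in 41 cells of each library, both transcripts in 28 and 18 cells, and Ms4a7 without Fcrls in 3 cells of each. For the background, 12 of 299 and 7 of 216 T cells of day 14 had an Fcrls UMI at the same depth (4.01% and 3.24%), and too few T cells of day 5 reached that depth to serve. Other C1q-positive cells carried Fcrls too, so its detection does not set these cells apart from them. Summed over all cells of day 5, Fcrls stood at 2220 and 2105 CPM in Cd5l+ P2ry12-low cells and at 1100 and 1511 CPM in Cd5l-zero cells. It stood at 1411 and 1139 CPM in cells of the P2ry12-low gate with 2 or more Mrc1 UMIs.

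**Figure D1:**
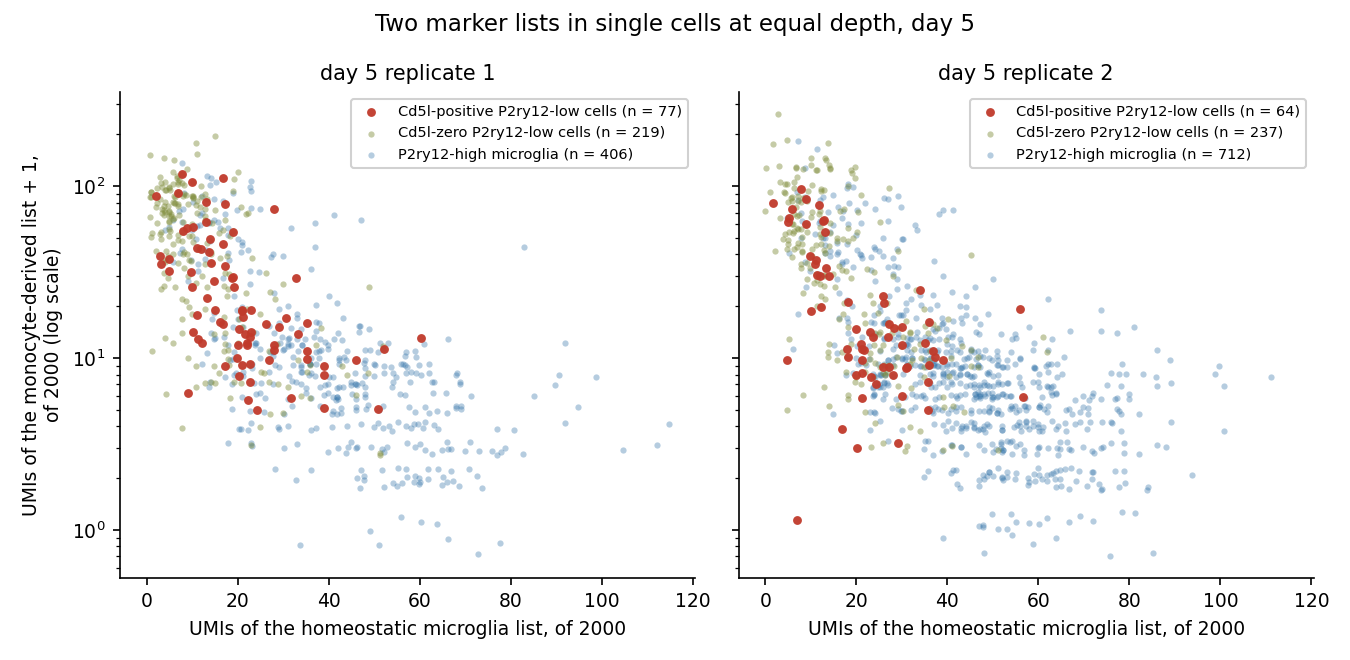
Each point is 1 cell of a day 5 library thinned to 2000 UMIs, with UMIs of the 12-gene homeostatic microglia list on the x axis and UMIs of the 19-gene monocyte-derived list plus 1 on a log y axis; points are jittered slightly. The Cd5l-positive P2ry12-low cells (red) have medians of 19 and 21 on the x axis. The medians are 40.5 and 44 in P2ry12-high microglia (blue) and 10 and 16 in Cd5l-zero cells (green). Few red cells (5.19% and 3.13%) reach the median of the blue set.

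On day 14 the label was borne out less well. The 14 Cd5l+ P2ry12-low cells of day 14 replicate 2 had 2491 CPM of Ly6c2, a marker of inflammatory monocytes, against 62.7 CPM in the 9 cells of replicate 1 and 55.3 and 87.4 CPM on day 5. Their microglia list summed to 4587 CPM, against 15341 CPM in P2ry12-high microglia and 4082 CPM in Cd5l-zero cells of that library. Their monocyte-derived list summed to 28167 CPM, against 8370 CPM in P2ry12-high microglia and 35728 CPM in Cd5l-zero cells. In day 14 replicate 1 the microglia list summed to 7272 CPM, against 15945 and 6167 CPM in those sets, and the monocyte-derived list to 12914 CPM, against 7817 and 25406 CPM. The day 14 cells thus also stood between the other sets, and on the microglia list nearer to Cd5l-zero cells, as on day 5. On the monocyte-derived list, replicate 2 was nearer to Cd5l-zero cells, while replicate 1 was nearer to P2ry12-high microglia, as on day 5. The cells of both days are called Cd5l+ P2ry12-low cells throughout, and the main gene counts that include day 14 replicate 2 are also given without it.

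Markers of most other cell types were at or near 0. Red blood cell genes stood at 0 CPM in all 4 libraries, and 2 of 4 oligodendrocyte genes and 3 of 4 astrocyte genes had no UMI in these cells. T cell and B cell genes are not read here, since the rule limited them. The 6 neutrophil genes summed to 125, 1487, 379 and 3407 CPM in the Cd5l+ P2ry12-low cells, to 462, 143, 451 and 971 CPM in P2ry12-high microglia and to 1706, 711, 946 and 6114 CPM in Cd5l-zero cells. The 4 NK cell genes summed to 533, 17.9, 152 and 299 CPM in the Cd5l+ P2ry12-low cells and to 187, 166, 26.4 and 66.3 CPM in P2ry12-high microglia. The part of neutrophil and NK cell transcripts in the comparisons below was not tested beyond leaving out cells with 3 or more UMIs of S100a8 and S100a9.

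The proposed markers differed in how well they set the cells apart. Fcrls stood at 1128, 842, 2220 and 2105 CPM in Cd5l+ P2ry12-low cells, against 1898, 1936, 2409 and 2535 CPM in P2ry12-high microglia and 838, 463, 1100 and 1511 CPM in Cd5l-zero cells. In every library the Cd5l+ P2ry12-low cells were below the P2ry12-high microglia and above the Cd5l-zero cells. Igf1 stood at 407, 287, 437 and 360 CPM, against 214, 275, 151 and 135 CPM in P2ry12-high microglia and 197, 237, 149 and 244 CPM in Cd5l-zero cells, so these cells were highest in every library, by a small margin in day 14 replicate 2. Ctsl stood at 1379, 1792, 2333 and 2405 CPM, against 2694, 2482, 2374 and 2426 CPM in P2ry12-high microglia and 1439, 1065, 1230 and 1401 CPM in Cd5l-zero cells. On day 5 it stood close to P2ry12-high microglia and well above Cd5l-zero cells. These markers were named with earlier results of the same data known, so their direction is no independent evidence.

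The first question was how common these cells were on each day. Cd5l+ P2ry12-low cells made up 0.349% and 0.607% of all cells in the day 14 libraries, with exact binomial 95% intervals of 0.160 to 0.661% and 0.332 to 1.02%. They made up 5.39% and 3.08% of all cells in the day 5 libraries, with intervals of 4.54 to 6.34% and 2.52 to 3.71%. The groups did not overlap, and the mean was 0.478% ± 0.182 on day 14 and 4.23% ± 1.63 on day 5 (SD, n = 2 libraries each). The difference of -3.75 percentage points had p = 0.333 in a two-sided exact permutation test over libraries, the smallest p that 2 against 2 libraries allow. Intervals cover counting error only.

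The lower share on day 14 was also seen with a narrower denominator. Among C1q-positive cells of the P2ry12-low gate, Cd5l was detected in 9 of 192 (4.69%) and 14 of 239 (5.86%) on day 14 and in 135 of 494 (27.3%) and 106 of 504 (21.0%) on day 5. The means were 5.27% ± 0.827 on day 14 and 24.2% ± 4.45 on day 5 (SD, n = 2 each), a difference of -18.9 percentage points (exact permutation p = 0.333, two-sided). After thinning to 2000 UMIs, with the limit on the P2ry12 sum applied to the thinned counts, the means were 2.74% ± 1.48 on day 14 and 18.4% ± 2.00 on day 5. Cells with a higher sum before thinning could thus enter this gate. With the gate fixed before thinning, Cd5l was detected at that depth in 2 of 124 (1.61%) and 6 of 190 (3.16%) cells on day 14. On day 5 it was detected in 57 of 296 (19.3%) and 53 of 301 (17.6%). P2ry12-high microglia showed the same order, with a Cd5l UMI in 4 of 128 (3.13%) and 6 of 54 (11.1%) cells on day 14 and in 101 of 493 (20.5%) and 133 of 978 (13.6%) on day 5.

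**Figure D2:**
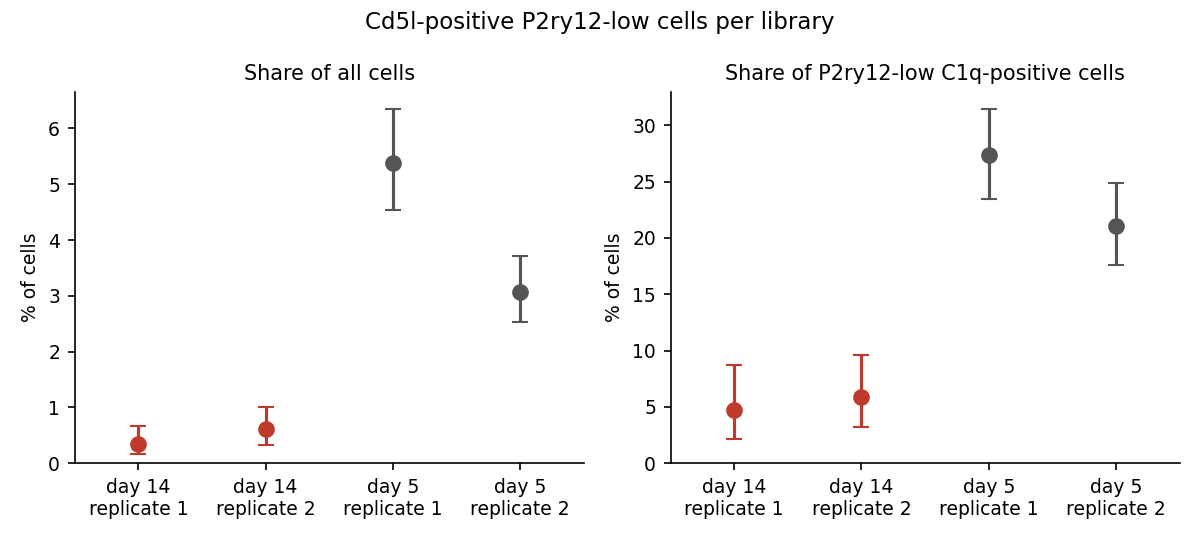
Share of Cd5l-positive P2ry12-low cells in each library, in percent of all cells (left) and of P2ry12-low C1q-positive cells (right), with exact binomial 95% intervals. Both day 14 libraries (red) lie below both day 5 libraries (grey) on either scale, at 0.349 and 0.607% against 5.39 and 3.08% of all cells.

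The next comparison asked how the cells differ from P2ry12-high microglia. UMI counts were summed per library and cell set and tested with edgeR's quasi-likelihood test, with the library as a block and Benjamini-Hochberg adjustment over all genes tested. Day 14 replicate 1, with 9 cells, was below the minimum of 10 cells and did not enter the fit. Genes of the rule were left out of the test, but genes whose transcripts vary with theirs from cell to cell follow the split in part by construction. Of 4275 genes tested, 947 (22.2%) passed an adjusted p of 0.05, 383 (8.96%) higher and 564 (13.2%) lower in Cd5l+ P2ry12-low cells. Median depth was 3340, 2268 and 2090.5 UMIs per cell in Cd5l+ P2ry12-low cells and 5699, 3234 and 2654.5 UMIs in P2ry12-high microglia, for day 14 replicate 2, day 5 replicate 1 and day 5 replicate 2. With cells thinned to 2000 UMIs, day 14 replicate 2 also fell below 10 cells, and the fit held the day 5 libraries only. There 820 genes passed, 425 higher and 395 lower, against 1595 in the same libraries without thinning, 866 higher and 729 lower. DESeq2 called 279 genes on the full counts of the main fit.

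Homeostatic microglia genes outside the rule were lower in Cd5l+ P2ry12-low cells. Of 12 tested, 11 fell and none rose, with a median log2 fold change of -1.66, against -0.03 over all genes tested. Without day 14 replicate 2 the count was also 11 of 12. Sall1, a transcription factor of microglial identity, stood at 0, 13.8 and 13.5 CPM in day 14 replicate 2 and the day 5 libraries, against 60.1, 61.4 and 72.5 CPM in P2ry12-high microglia. The groups did not overlap, and the log2 fold change was -2.34 ± 0.42 (SE). Cx3cr1, the fractalkine receptor, fell by 2.12 on the log2 scale, the lectin gene Siglech by 2.03, the nucleotide receptor gene P2ry13 by 1.62 and Csf1r, the receptor that microglia need to survive, by 1.67. Olfml3, which codes for a secreted glycoprotein of microglia, fell by less, at -1.20 ± 0.20 (edgeR with Benjamini-Hochberg adjustment, adjusted p = 4.0e-06). Fcrls was the member of the list that missed the threshold, at -0.44 ± 0.21 (adjusted p = 0.12).

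Genes of monocyte-derived macrophages were higher. Of 17 tested, 12 rose and none fell (median 0.98), again 12 of 19 without day 14 replicate 2. The count was 7 without day 5 replicate 1, 8 without day 5 replicate 2 and 7 in DESeq2, with none lower. Lyz2, lysozyme, stood at 6990, 16861, 8051 and 9007 CPM in Cd5l+ P2ry12-low cells, against 4533, 5056, 6345 and 5051 CPM in P2ry12-high microglia. The groups did not overlap, although day 14 replicate 2 stood well above the other libraries, and the log2 fold change was 0.98 ± 0.23, a call lost when either day 5 library was left out. Ms4a7 rose by 1.18 ± 0.19, the intermediate filament gene Vim by 1.49 ± 0.20, Lgals3, which codes for galectin 3, by 2.17 ± 0.22 and Arg1, the urea cycle enzyme arginase of alternatively activated macrophages, by 3.40 ± 0.59. Arg1 was low in both sets, at 0, 53.8, 52.5 and 33.6 CPM against 1.58, 5.72, 2.54 and 5.25 CPM. Border macrophage genes were hardly measured, with 4 tested, of which Pf4, F13a1 and Folr2 rose.

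**Figure D3:**
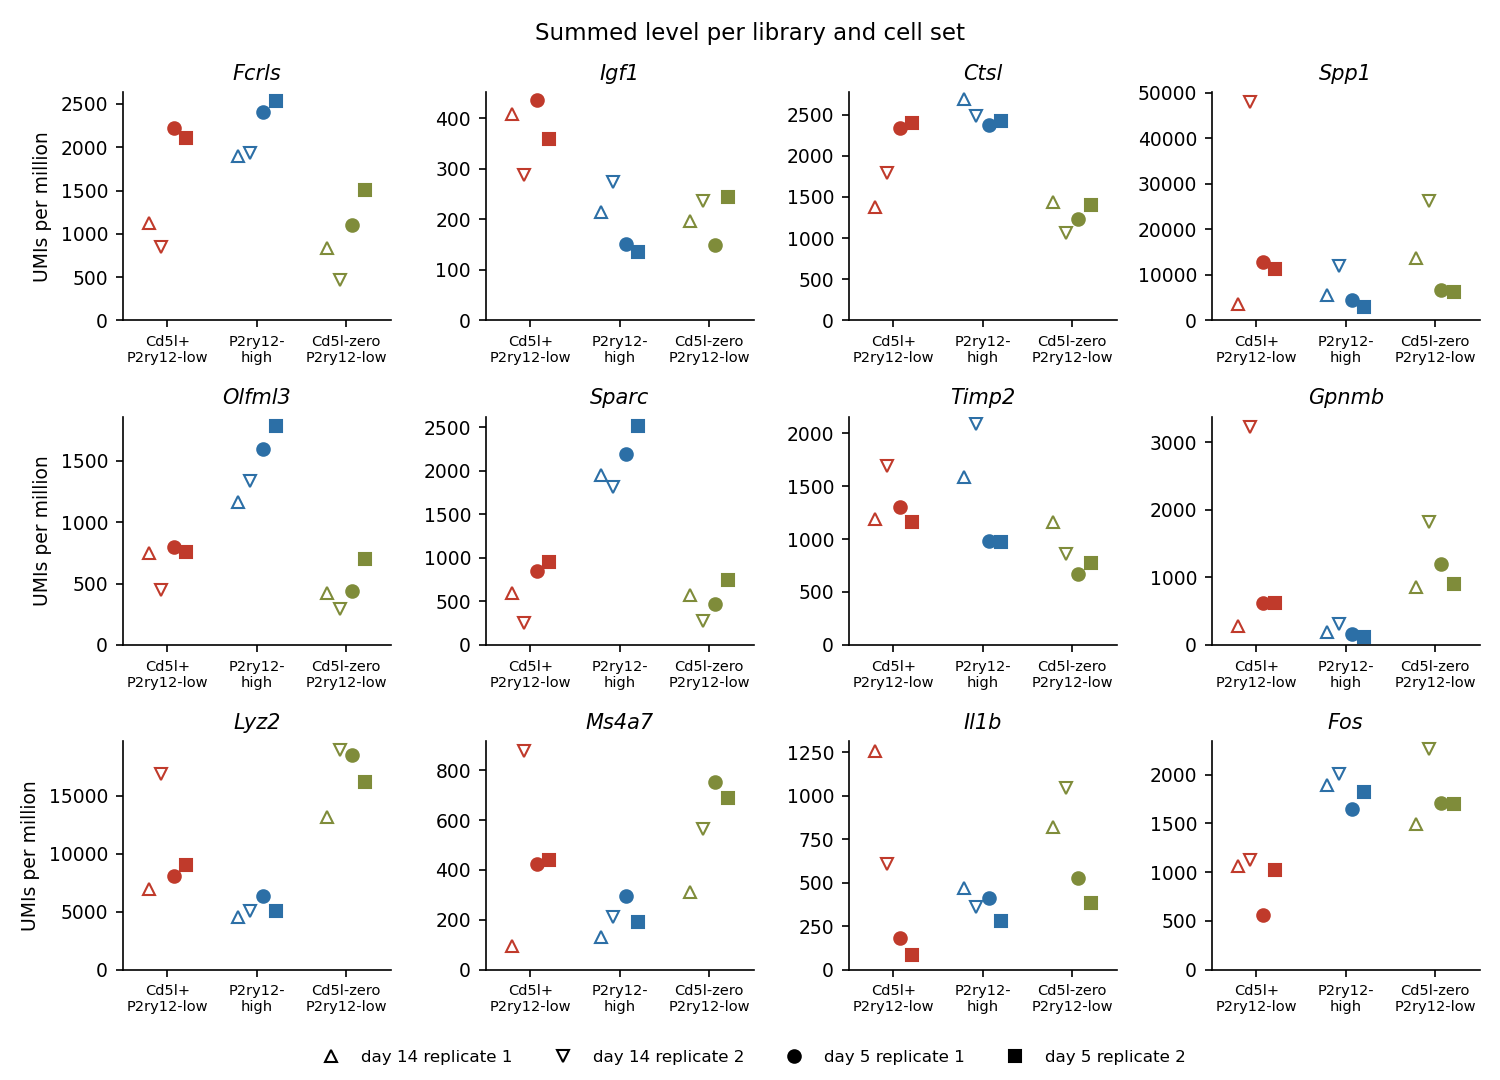
Summed level of 12 genes, in CPM on axes that start at 0, in Cd5l-positive P2ry12-low cells (red), P2ry12-high microglia (blue) and Cd5l-zero P2ry12-low cells (green), with 1 point per library (filled day 5, open day 14). On day 5 Olfml3, Sparc, Lyz2 and Ms4a7 of the red set lie between those of the other sets, Igf1 and Spp1 lie above both, and Il1b and Fos lie below both.

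Spp1 and Igf1 were among the secreted factors that were higher. Osteopontin, the product of Spp1, is a secreted phosphoprotein of phagocytes. Spp1 stood at 3573, 47895, 12720 and 11334 CPM in Cd5l+ P2ry12-low cells, against 5554, 12047, 4494 and 2922 CPM in P2ry12-high microglia. It was higher in 3 of the 4 libraries, and lower in day 14 replicate 1, which was outside the fit. The log2 fold change was 1.83 ± 0.24 (edgeR with Benjamini-Hochberg adjustment, adjusted p = 2.9e-08), and Igf1 rose by 1.23 ± 0.20 (adjusted p = 3.3e-06). Both calls were lost when day 5 replicate 2 was left out, with adjusted p-values of up to 0.083 for Spp1 and 0.12 for Igf1 over all alternatives, and the Igf1 call was also lost without day 5 replicate 1. Of 11 growth and repair genes tested, Spp1, Igf1, Gpnmb and Tgfbi rose and Pdgfb fell, and without day 14 replicate 2, 5 of 12 rose and 2 fell.

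The disease-associated microglia list split, in a fit where 8.96% of all genes tested were higher and 13.2% lower. Of 14 genes tested, 4 rose (Gpnmb, Fabp5, Spp1 and Cd63) and 2 fell (Csf1 and Ch25h), with a median of -0.01, and the counts were 8 and 4 of 15 without day 14 replicate 2, 3 and 1 of 14 without day 5 replicate 1, and 2 and 2 of 14 without day 5 replicate 2. Gpnmb, a glycoprotein of lipid-laden phagocytes, stood at 282, 3225, 617 and 615 CPM in Cd5l+ P2ry12-low cells, against 190, 306, 169 and 118 CPM in P2ry12-high microglia. Each library of the fit was higher in Cd5l+ P2ry12-low cells, and the log2 fold change was 2.53 ± 0.20 (edgeR with Benjamini-Hochberg adjustment, adjusted p = 1.0e-14). Cst7, a cystatin of activated microglia, did not pass, at 470, 842, 357 and 373 CPM against 1659, 2085, 313 and 321 CPM. Its levels in Cd5l+ P2ry12-low cells were below those of P2ry12-high microglia on day 14 and above them on day 5.

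Inflammatory and immediate early transcripts were lower. Of 13 immediate early and stress genes tested, 12 fell and none rose (median -1.61), and all 13 fell without day 14 replicate 2. The count was 6 without day 5 replicate 1, 10 without day 5 replicate 2 and 10 in DESeq2. Klf2, a zinc finger transcription factor, stood at 62.7, 35.8, 99.5 and 141 CPM, against 454, 183, 499 and 730 CPM in P2ry12-high microglia. Jun, part of the AP-1 transcription factor, stood at 407, 305, 169 and 521 CPM against 1284, 658, 1502 and 2077 CPM. Neither gene overlapped between the groups, and the log2 fold changes were -2.30 for Klf2, -2.22 for Jun, -3.34 for Egr1 and -1.07 for Fos. Of 15 inflammatory cytokine and chemokine genes, 9 fell and 1 rose (median -1.52), or 11 and 1 of 16 without day 14 replicate 2: the log2 fold changes of Il1a, Tnf, Ccl4, Ccl3 and Nfkbia were -3.01, -2.53, -2.23, -2.00 and -2.28, while the monocyte chemoattractant Ccl7 rose by 3.35 ± 0.25. Il1b, interleukin 1 beta, passed at -0.80 but was higher in Cd5l+ P2ry12-low cells than in P2ry12-high microglia in both day 14 libraries. It stood at 1254 against 467 CPM in replicate 1, which was outside the fit, and at 609 against 360 CPM in replicate 2.

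Lipid, iron and glycolysis genes gave smaller lists. Plin2, which coats lipid droplets, stood at 407, 663, 1145 and 1093 CPM in Cd5l+ P2ry12-low cells, against 166, 166, 460 and 350 CPM in P2ry12-high microglia, with no overlap within a day and a log2 fold change of 1.62 ± 0.19. Of 17 genes of the liver X receptor and lipid list, Fabp5, Apoc2, Plin2 and Lipa rose, Mylip and Lpcat3 fell, and 11 did not pass, among them the liver X receptor targets Abca1 at -0.32 and Abcg1 at 0.07. Of 8 iron and heme genes, the ferritins Ftl1 and Fth1, heme oxygenase Hmox1 and biliverdin reductase Blvra rose, and the iron exporter Slc40a1 and transferrin Trf fell. Of 12 glycolysis and hypoxia genes, 6 rose, among them Tpi1 by 0.77 and Pkm by 0.71, and the hexokinase gene Hk2 fell by 1.78. Of 21 lysosome genes, 2 rose (Ctsb and Cd63) and 2 fell, among them Laptm5. Over all genes tested in this fit, 8.96% were higher and 13.2% lower. The lysosome counts lie near these shares and are not read as a result about that list.

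Receptors for dying cells moved in both directions. The scavenger receptor Msr1 rose by 1.78 ± 0.21, and the lipid receptor gene Cd300lf and the lysosomal protein gene Cd68 rose by 0.99 and 0.78. The phosphatidylserine-dependent receptor tyrosine kinase Mertk fell by 1.89 ± 0.31, its ligand gene Pros1 by 0.75, and Itgb5 and Elmo1 also fell, among 15 genes tested. Complement and Fc receptor genes split likewise, with Clec4n, Cfp and C5ar1 higher and 5 of 11 lower. The shares over all genes tested were 8.96% higher and 13.2% lower, and both lists are short. Of 13 macrophage transcription factors, 9 fell, among them Mef2c by 1.46, Runx1 by 1.05 and Irf8 by 0.69, and Bhlhe40 rose by 1.42.

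By the fixed rule for single genes, the largest rises were Ccl7, Gpnmb, Ccl8, Emp1, Cd38, Lgals3, Cd93, Clec4d, Adam8, Cd24a, Acp5 and S100a8, at log2 fold changes of 1.92 to 3.35. In day 14 replicate 1, outside the fit, Ccl7, Emp1, Cd93 and S100a8 were lower instead, the first 3 of them without a UMI. Cd93, Clec4d and Cd24a lost the call with 2 or more Cd5l UMIs required. Acp5, an acid phosphatase of osteoclasts and macrophages, rose by 1.93 ± 0.28. S100a8, a neutrophil and monocyte alarmin, passed at 1.92 ± 0.31 but not when cells with 3 or more UMIs of S100a8 and S100a9 were left out, and with 2 or more Cd5l UMIs required its log2 fold change was -3.57. Other neutrophil and NK cell genes passed too, with Retnlg, which was higher in day 5 replicate 2 alone, at 2.22, S100a9 at 1.77, Gzma at 2.21 and Nkg7 at 1.58. The largest falls were Gem, Nav3, Adamts1, Stx16, Egr1, Mob3c, Il1a, Dock4, Tanc2, Frmd4a, Smad7 and Herpud1, at -2.77 to -5.05. Adamts1 and Mob3c were higher in day 14 replicate 1, at 94.0 CPM each (3 UMIs) against 87.1 and 66.5 CPM. Gem, a small GTPase induced by stimulation, stood at 62.7, 0, 2.76 and 3.36 CPM in Cd5l+ P2ry12-low cells, against 93.4, 103, 116 and 78.4 CPM in P2ry12-high microglia, and the 62.7 CPM of day 14 replicate 1 are 2 UMIs.

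**Figure D4:**
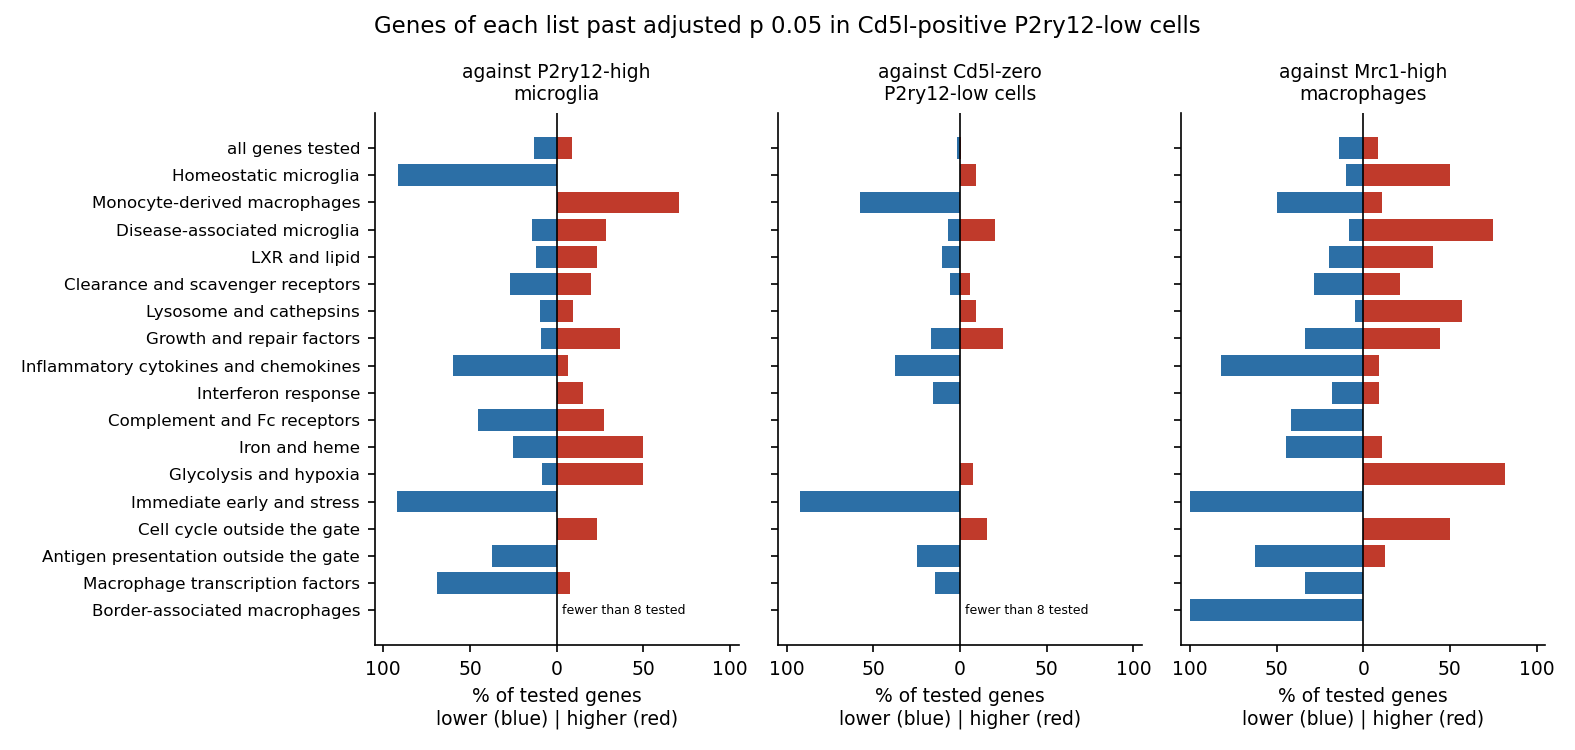
Percent of the tested genes of each list that passed an adjusted p of 0.05, higher to the right (red) and lower to the left (blue) in Cd5l-positive P2ry12-low cells, in the comparisons with P2ry12-high microglia, Cd5l-zero cells and Mrc1-high macrophages; lists with fewer than 8 genes tested are marked. Homeostatic microglia genes were lower in 11 of 12 tests and monocyte-derived genes higher in 12 of 17 against P2ry12-high microglia, while immediate early genes were lower in 12, 12 and 13 of 13.

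Cd5l-zero cells of the same gate differed from the Cd5l+ P2ry12-low cells in the Cd5l condition alone. They met every other limit but had no Cd5l UMI, although a cell without a UMI may still express the gene. Since Cd5l chose the sets, genes whose transcripts vary with it from cell to cell follow the split in part by construction. Median depth was close on day 5 and lower in Cd5l+ P2ry12-low cells in day 14 replicate 2, at 3340, 2268 and 2090.5 UMIs per cell in Cd5l+ P2ry12-low cells and 4757, 2346 and 2197 UMIs in Cd5l-zero cells of day 14 replicate 2 and the day 5 libraries. Of 6281 genes tested, 135 (2.15%) passed, 39 (0.621%) higher and 96 (1.53%) lower. Without day 14 replicate 2 the counts were 112 higher and 134 lower. The number of calls depended on the method: 12 genes passed in DESeq2, 16 in edgeR without day 5 replicate 1 and 28 without day 5 replicate 2. Of the 24 genes named by the rule, 5 and 8 passed without these libraries, among them neither Igf1, Ctsl nor Spp1. Fcrls, a given marker outside those 24, did not pass in these fits either.

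Monocyte-derived genes were lower in Cd5l+ P2ry12-low cells than in Cd5l-zero cells. Of 19 tested, 11 fell and none rose, with a median of -0.77, against -0.04 over all genes tested; the count was 13 without day 14 replicate 2, 5 without day 5 replicate 1, 6 without day 5 replicate 2 and 2 in DESeq2. Lyz2 stood at 6990, 16861, 8051 and 9007 CPM, against 13165, 18987, 18495 and 16181 CPM in Cd5l-zero cells, lower in every library. Its log2 fold change was -0.74 ± 0.17 (edgeR with Benjamini-Hochberg adjustment, adjusted p = 0.0014). Ms4a4c fell by 1.62, Plac8 by 1.23, Clec12a by 1.20, the chemokine receptor gene Ccr2 by 1.15, fibronectin Fn1 by 1.12, Ms4a6c by 0.84 and Chil3 by 0.80. Arg1 fell by 1.80 ± 0.26 (adjusted p = 1.7e-08), although it was higher than in P2ry12-high microglia.

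Among homeostatic microglia genes Fcrls passed, and 10 of 11 did not. Fcrls rose by 0.79 ± 0.16 (edgeR with Benjamini-Hochberg adjustment, adjusted p = 2.9e-04). Olfml3, at 0.53 ± 0.17, and Sparc, at 0.52 ± 0.17, missed the threshold (adjusted p = 0.072 and 0.083). Without day 14 replicate 2, 4 of 11 genes of the list passed, all of them higher. Cx3cr1, at 313, 89.6, 249 and 309 CPM against 357, 256, 295 and 433 CPM, was lower in every library but did not pass.

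Of the lysosome list, 2 of 21 genes rose, Ctsl and Ctsd, and none fell (median 0.19). Among growth and repair factors, 3 of 12 rose (Igf1, Spp1 and Gas6) and 2 fell (Gdf15 and Tgfbi), or 4 and 4 of 11 without day 14 replicate 2. Igf1 rose by 0.94 ± 0.18 and Spp1 by 0.87 ± 0.17, with adjusted p-values of 4.3e-05 and 7.0e-05 in edgeR with Benjamini-Hochberg adjustment. Spp1 stood at 3573, 47895, 12720 and 11334 CPM in Cd5l+ P2ry12-low cells, against 13795, 26295, 6758 and 6305 CPM in Cd5l-zero cells, higher in the 3 libraries of the fit and lower in day 14 replicate 1. Ctsl rose by 0.83 ± 0.16 and the cathepsin gene Ctsd by 0.63. Timp2, an inhibitor of matrix metalloproteases, stood at 1191, 1684, 1302 and 1157 CPM, against 1160, 857, 673 and 770 CPM, and rose by 0.84 ± 0.16. Its groups overlapped only through day 14 replicate 1 of the Cd5l-zero cells. Serpine2, a secreted protease inhibitor, rose by 0.95 ± 0.17, Cst7 by 0.89 ± 0.17 and Gas6, the bridging ligand of the TAM receptors, by 0.78, while the receptor gene Axl fell by 0.81.

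The metal-binding protein gene Mt2 had the largest rise by the rule, at 1.28 ± 0.24. It stood at 62.7, 17.9, 147 and 121 CPM, against 21.2, 12.4, 50.7 and 62.3 CPM in Cd5l-zero cells, higher in every library, although 17.9 CPM is a single UMI. Npl, an enzyme that breaks down sialic acid, rose by 1.05 ± 0.20, and Tspan7, Wdr18, Cadm1 and Ecscr completed the 12 named rises. The cell cycle genes Mcm5 and Stmn1, which are outside the rule, rose by 1.85 and 0.86. The dendritic cell gene Cd209a rose by 1.80 ± 0.50, at 0, 0, 52.5 and 16.8 CPM against 19.6, 12.4, 0 and 18.1 CPM, which is higher in day 5 replicate 1 alone.

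Inflammatory and immediate early transcripts were lower here too in the libraries of the fit. In day 14 replicate 1, outside the fit, both summed lists were slightly higher than in Cd5l-zero cells. The immediate early list stood at 6488 against 6242 CPM there and the inflammatory list at 6175 against 5762 CPM, with Egr1 at 282 against 152 CPM. Il1b stood at 1254, 609, 180 and 84.1 CPM, against 820, 1041, 525 and 382 CPM in Cd5l-zero cells. It was lower in the 3 libraries of the fit and higher in day 14 replicate 1, and its log2 fold change was -1.49 ± 0.19 (edgeR with Benjamini-Hochberg adjustment, adjusted p = 3.8e-11). Fos stood at 1066, 1129, 561 and 1022 CPM, against 1497, 2258, 1709 and 1697 CPM, lower in every library with no overlap, and fell by 1.11 ± 0.16 (adjusted p = 2.3e-08). Of 13 immediate early and stress genes, 12 fell and none rose (median -0.92), with Klf2 at -1.25, Egr1 at -1.59, Zfp36 at -1.05 and Junb at -0.99, while Atf3 missed at -0.59. The count was 12 without day 14 replicate 2 and 13 with thinned cells, a fit that also lacked that library. It was 4 in DESeq2, and 2 and 3 without the first and the second replicate of day 5. Of 16 inflammatory genes, 6 fell (median -0.67), among them Ptgs2, Cxcl10, Nfkbia and Ccl12. That count was 7, with 1 gene higher, without day 14 replicate 2, 2 without either day 5 library and 1 in DESeq2.

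No gene of the complement and Fc receptor list (13 tested in edgeR), the iron and heme list (9 tested) or the border macrophage list (7 tested) passed against Cd5l-zero cells. Of all genes tested, 2.15% passed, so the absence of calls in lists this short is not read as a result about them. Of the liver X receptor and lipid list, Pltp and Apoc1 fell by 1.09 and 0.69 and 17 of 19 did not pass. Apoe, the main lipid carrier of macrophages, was among them, at 57863, 77907, 46577 and 46882 CPM, against 57849, 49781, 65539 and 64498 CPM. It was higher in Cd5l+ P2ry12-low cells in both day 14 libraries and lower in both day 5 libraries.

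The same split by Cd5l was then made among P2ry12-high microglia of day 5, a comparison chosen after the data were seen. It set 101 and 133 Cd5l-positive cells against 392 and 845 cells without a Cd5l UMI, and it shares libraries but no cells with the comparison inside the P2ry12-low gate. Median depth was 3663 and 3859 UMIs per cell in the Cd5l-positive cells and 3099 and 2520 UMIs in the Cd5l-zero ones; the part of depth was not tested beyond thinning. Of 7045 genes tested in edgeR, 438 (6.22%) passed, 266 (3.78%) higher and 172 (2.44%) lower in the Cd5l-positive cells. Spp1 stood at 10860 and 8297 CPM in Cd5l-positive P2ry12-high microglia, against 2662 and 1726 CPM in the Cd5l-zero ones, and rose by 2.28 ± 0.10. Igf1 averaged 353 CPM against 88.3 CPM and rose by 1.97 ± 0.15. Fabp5, the lipase gene Lpl, Plin2 and Msr1 rose by 1.50, 1.16, 1.06 and 1.06, and Fcrls and Ctsl by 0.43 and 0.46.

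Both splits called overlapping sets of genes, but both use Cd5l, a gene of the rule, and both hold the day 5 libraries. Genes that vary with Cd5l from cell to cell follow both splits in part by construction, so the overlap is given as a description. The shares over all genes were not matched for level. Of 5993 genes tested in both, 38 were higher with Cd5l in the P2ry12-low gate, and 23 of them (60.5%) were also called higher among P2ry12-high microglia, where 4.41% of all genes were called higher. Those 23 are 8.71% of the 264 genes called higher in that gate. Of 93 genes lower in the P2ry12-low gate, 28 (30.1%) were also called lower among P2ry12-high microglia, where 2.70% were, and they are 17.3% of its 162 genes. No gene was called in opposite directions in these fits. Without day 14 replicate 2, 54 of 111 higher genes (48.6%) and 37 of 130 lower genes (28.5%) were shared, with 1 opposite call each way. With thinned cells, again without day 14 replicate 2, 25 of 39 and 40 of 87 were shared, with 1 and 2 opposite calls. In DESeq2, 3 of 3 higher genes and 4 of 8 lower genes were shared.

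The 23 shared rises held the proposed markers Fcrls, Igf1 and Ctsl. They also held Spp1, Cst7, Ctsd, Timp2, Serpine2, Gas6, Npl, the metallothionein genes Mt1 and Mt2, the elastase gene Mmp12, the glycolytic enzyme gene Pgk1 and Stmn1. The 28 shared falls held Fos, Jun, Junb, Jund, Egr1, Klf2, Klf6, Ier2, Dusp1, Zfp36, Nfkbia, Cxcl2 and Cd83. In the P2ry12-low gate Cxcl2 was lower in both day 5 libraries and higher in day 14 replicate 2, at 502 against 448 CPM. By gene group, 10 of 13 immediate early genes fell among P2ry12-high microglia with Cd5l (median -0.84), 9 of 13 glycolysis genes rose (median 0.62) and 8 of 15 disease-associated genes rose with none lower (median 0.54). Monocyte-derived genes differed between the gates in number called, with 11 of 19 lower in the P2ry12-low gate and 1 of 17 higher and none lower among P2ry12-high microglia; the difference itself was not tested. Homeostatic genes fell in 5 of 12 tests among P2ry12-high microglia, among them Siglech by 0.77, Csf1r by 0.51 and Cx3cr1 by 0.45.

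**Figure D5:**
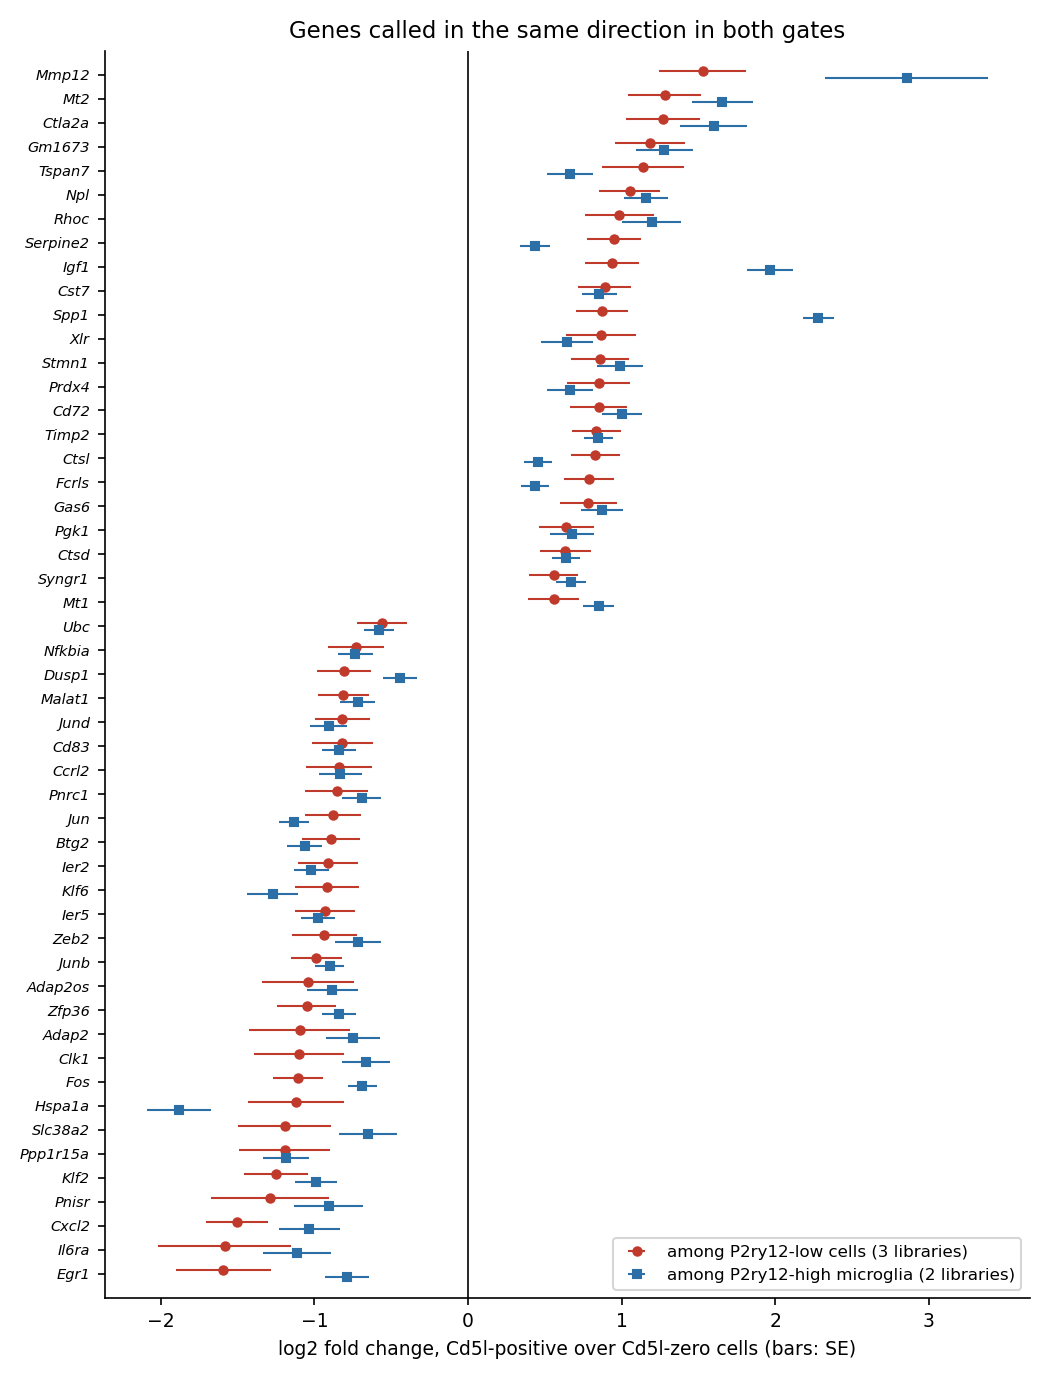
Log2 fold change with SE of Cd5l-positive over Cd5l-zero cells for the 51 genes called in the same direction in both gates, among P2ry12-low cells (red, 3 libraries) and P2ry12-high microglia (blue, 2 libraries). The 23 rises include Spp1 at 0.87 and 2.28 and Igf1 at 0.94 and 1.97, and the 28 falls include Fos at -1.11 and -0.69.

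Against Mrc1-high macrophages, the C1q-positive cells of the P2ry12-low gate with 2 or more Mrc1 UMIs, the Cd5l+ P2ry12-low cells had lower levels of border macrophage genes. Since Mrc1 chose the sets, genes that vary with it follow the split in part by construction, and 10 border genes passed the filter on low counts here, against 4 in the fit with P2ry12-high microglia. Border-associated macrophages line the vessels and membranes around the brain. The fit used the day 5 libraries, with 135 and 106 cells against 27 and 50, of which 5 and 4 had a Cd5l UMI. Of 3160 genes tested in edgeR, 698 (22.1%) passed, 261 (8.26%) higher and 437 (13.8%) lower, and 93 passed in DESeq2. Pf4, a platelet chemokine made by border macrophages, stood at 163 and 276 CPM, against 2365 and 2668 CPM in Mrc1-high macrophages, and fell by 3.53 ± 0.18. Lyve1, a hyaluronan receptor, stood at 5.53 and 3.36 CPM, against 228 and 364 CPM, and fell by 5.83 ± 0.47. The 10 border genes tested were all lower, among them Cd163, Cbr2, F13a1, Folr2 and Stab1, which is given as a description of the split.

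Microglial and disease-associated genes were higher than in Mrc1-high macrophages. Of 10 homeostatic genes, 5 rose and 1 fell (median 0.88). Sparc, a matrix protein of microglia, stood at 854 and 955 CPM and rose by 2.32 ± 0.23, Olfml3 rose by 1.92 ± 0.23 and Fcrls by 0.79 ± 0.15. Of 12 disease-associated genes, 9 rose and 1 fell, with Spp1 at 2.43 ± 0.12, Cst7 at 2.52 ± 0.31 and Cd9 at 2.06. Of 21 lysosome genes, 12 rose and 1 fell, with Ctsd at 1.63 and Ctsl at 1.50 ± 0.16, and 9 of 11 glycolysis genes rose. All 13 immediate early and stress genes fell (median -2.67), with Hspa1a, a heat shock protein gene, at -4.96, and so did 9 of 11 inflammatory genes, with the neutrophil chemoattractant Cxcl2 at -4.59 ± 0.21.

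Within the Cd5l+ P2ry12-low cells of day 5, levels varied with the number of Cd5l UMIs. The 70 and 40 cells with 2 or more Cd5l UMIs had 14816 and 16761 CPM of Spp1, against 10576 and 8313 CPM in the 65 and 66 cells with 1. Igf1 stood at 536 and 536 CPM against 336 and 262 CPM, and Ctsl at 2854 and 3226 CPM against 1801 and 1947 CPM. Both libraries had the higher level in the cells with more Cd5l for each of these genes. Fcrls differed less, at 2285 and 2493 CPM against 2153 and 1890 CPM. These splits use a gene of the rule and are given as descriptions.

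Levels also changed along the sum of P2ry12, Tmem119 and Gpr34 among Cd5l-positive cells of day 5. Sparc stood at 492 and 598 CPM at 0 or 1 UMI of that sum, at 1068 and 1203 CPM at 2 or 3 UMIs, at 1107 and 1800 CPM at 4 or 5 and at 2287 and 2244 CPM at 6 or more, the last pair of steps outside the rule. Olfml3 followed the same order, at 648 and 590, 879 and 878, 1153 and 1343, and 1398 and 1702 CPM over these steps. Ms4a7 stood at 380 and 582, 453 and 342, 212 and 142, and 162 and 199 CPM over these steps. It was lower at 4 or more UMIs than at fewer, but without a steady order in either library. Spp1 did not follow the order of Sparc and Olfml3, at 15765 and 11444, 10924 and 11257, 18037 and 12551, and 7791 and 7447 CPM over the same steps. The sum is a value of the rule, and median depth differed along it, at 1843 and 2032 UMIs per cell at 0 or 1 UMI and 4469 and 4624 at 6 or more, so these levels are given as descriptions.

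Day 14 and day 5 were not compared by a test within the Cd5l+ P2ry12-low cells, because day 14 replicate 1 held 9 cells. Values with exact Poisson 95% intervals, which cover counting error only, are given instead. Fcrls stood at 1128 CPM (790 to 1562) and 842 CPM (619 to 1120) on day 14 and at 2220 CPM (2069 to 2379) and 2105 CPM (1944 to 2277) on day 5. It was lower in both day 14 libraries than in both day 5 libraries, with intervals that did not overlap between the days. Ctsl followed the same order, at 1379 CPM (1002 to 1851) and 1792 CPM (1458 to 2179) on day 14 and 2333 CPM (2179 to 2496) and 2405 CPM (2232 to 2588) on day 5, with the intervals of day 14 replicate 2 and day 5 replicate 1 meeting at 2179 CPM. Igf1 did not separate the days, at 407 CPM (217 to 697) and 287 CPM (164 to 466) on day 14 and 437 CPM (371 to 511) and 360 CPM (295 to 435) on day 5.

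For several genes the day 14 libraries stood further from each other than from day 5. Spp1 stood at 3573 CPM (2948 to 4293, from 114 UMIs) in day 14 replicate 1 and at 47895 CPM (46096 to 49746, from 2673 UMIs) in replicate 2, on either side of the day 5 values of 12720 and 11334 CPM. Gpnmb stood at 282 CPM (129 to 535) and 3225 CPM (2771 to 3732) on day 14, and at 617 and 615 CPM on day 5. Spp1 of replicate 2 was also high in Cd5l-zero cells of that library, at 26295 CPM, and its T cells had 294 CPM. A gene without a UMI could have stood at up to 94.0 and 53.8 CPM on day 14 and at up to 8.29 and 10.1 CPM on day 5, the level of 3 UMIs. Fn1 and Lyve1 had no UMI in either day 14 library, so lower levels were not detectable at this depth.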

How the data were processed

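The authors deposited raw UMI counts per gene and cell barcode for 4 libraries with 31053 genes. Cell Ranger 3.0.1, Seurat 2.3.4 and the GRCm38/mm10 genome are named per the submitters' processing notes. Version 3.0.1 stands in the day 5 matrices, per the file headers, and none in those of day 14, a difference that runs with the day. Cells with 200 or more genes and at most 10% mitochondrial UMIs were kept. No doublet caller was run: the limits on T cell, B cell and cell cycle genes remove some doublets, and an alternative left out cells with 3 or more S100a8 and S100a9 UMIs. For the background of Cd5l, T cells had 3 or more UMIs of the T cell genes, and neutrophils had 50 or more of S100a8 and S100a9. Both had fewer than 3 UMIs of C1q. The members and gene lists were chosen with earlier results of these data known.

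Counts were summed per library and cell set, for libraries with 10 or more cells in both sets, and tested with edgeR 4.0.16 in R 4.3.3 (TMM scaling, filterByExpr, quasi-likelihood F test, two-sided, Benjamini-Hochberg adjusted p under 0.05), with the library as block, since both sets come from the same library. The fits with P2ry12-high microglia and Cd5l-zero cells used 3 libraries and those with Mrc1-high macrophages and between Cd5l-positive and Cd5l-zero P2ry12-high microglia used 2, so much of the spread is borrowed across genes. DESeq2 1.42.0 was an alternative. Genes of the rule were left out of calls. Single genes were named when they passed, reached 50 CPM in either set and moved the same way in every fitted library: the 12 largest changes each way, without ribosomal, mitochondrial and unnamed genes, besides the fixed lists and given markers. Genes shown only as examples of shared calls were chosen after their values were seen. Python 3.11.15 with numpy 2.4.6, scipy 1.17.1, pandas 2.3.3 and matplotlib 3.10.9 computed shares, levels and figures. Fold changes are given as log2 ± SE and shares as mean ± SD. Clec7a was not analysed here.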

Additional observations from a re-analysis of the deposited data

How the results depend on the processing

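Against P2ry12-high microglia, where 947 genes passed, the alternatives that moved the count by over 1.5 times were DESeq2 (279), no filter on low counts (624), 20 cells per library and set, which leaves the day 5 libraries (1595, of which 866 higher), no replicate block (510) and fewer than 2 UMIs of P2ry12, Tmem119 and Gpr34 (438). Leaving out 1 library gave 229 to 1595 genes: 238 without day 5 replicate 1, 229 without day 5 replicate 2 and 1595 without day 14 replicate 2. Thinned cells, which left the day 5 libraries only, gave 425 higher of 820, against 866 of 1595 in these libraries without thinning. Against Cd5l-zero cells, where 135 passed, the count was 12 in DESeq2. It was 246 with 20 cells per library and set or the day 5 libraries only (112 higher). With 2 or more Cd5l UMIs, which also left the day 5 libraries only, it was 78. It was 67 with fewer than 2 UMIs of the P2ry12 sum (chosen after seeing the data) and 16 to 246 with 1 library left out. With no replicate block, edgeR called 0 genes there (497 at an unadjusted p under 0.05; DESeq2 with the block called 12). Against Mrc1-high macrophages, where 698 passed, the counts were 93 in DESeq2, 327 with 2 or more Cd5l UMIs, 403 with thinned cells and 260 without cells with 3 or more S100a8 and S100a9 UMIs. Without a filter on low counts 320 of 560 were higher there. Within P2ry12-high microglia, where 438 passed, they were 74 in DESeq2, 269 with no replicate block and 717 without S100a8 and S100a9 cells. The causes were not tested.

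Among named genes 1 turned round: S100a8 against P2ry12-high microglia, at -3.57 with 2 or more Cd5l UMIs. Of the settings of the genes named by the rule, 343 kept direction and call against P2ry12-high microglia and 8 lost the call; against Cd5l-zero cells 219 kept and 115 lost it, and against Mrc1-high macrophages 202 kept and 18 lost it. Scaling by DESeq2 size factors moved the median of all genes by at most 0.03 (log2).

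The difference in share of all cells, -3.75 percentage points, was -4.91 to -2.60 with 1 library left out, -1.83 with 2 or more Cd5l UMIs, -1.39 with fewer than 2 UMIs of the P2ry12 sum, -3.64 with thinned cells, -3.74 with at most 5% mitochondrial UMIs and -4.68 among C1q-positive cells. The difference among P2ry12-low C1q-positive cells, -18.9 points, was -22.1 to -15.8 with 1 library left out, -9.38, -14.0, -15.7 and -19.3 under the settings on Cd5l, the P2ry12 sum, thinning and mitochondrial UMIs. The days overlapped in none of these settings. For both shares, the setting with thinned cells applied the limit on the P2ry12 sum to the thinned counts. With the replicate number as a block the differences were -3.75 and -18.9 points (exact permutation p = 0.5 for both, the smallest that 2 pairs allow); the number is not stated to mark a shared day or animal.

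Day 14 against day 5 within the cells was not run. Leaving out day 14 replicate 1 changed no fit, since it entered none. Requiring 4 or more Mrc1 UMIs, and leaving out a day 5 library from the fits on 2 libraries, gave no value. Depth limits day 14 most, where 3 UMIs are 94.0 and 53.8 CPM.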

Other observations

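Against Cd5l-zero cells, 2 of 8 antigen presentation genes outside the rule and 2 of 13 interferon genes were lower and none higher. Of all genes tested there, 1.53% were lower. The MHC class II chaperone gene Cd74 and the activation marker Cd83 fell by 0.83 and 0.82. The interferon-induced genes Oasl2 and Ifitm3 fell by 1.23 and 0.60 (edgeR with Benjamini-Hochberg adjustment). Against P2ry12-high microglia Rsad2 and Ifit3 rose by 1.45 and 0.92. Among transcription factors, Cebpb and Zeb2 fell by 0.95 and 0.93 against Cd5l-zero cells. The iron genes that rose against P2ry12-high microglia included Ftl1, at 16989, 18796, 23890 and 22782 CPM in Cd5l+ P2ry12-low cells and 8037, 8516, 13015 and 11015 CPM in P2ry12-high microglia, with no overlap.

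Genes detected per cell at 2000 UMIs had medians of 852 and 837.5 in Cd5l+ P2ry12-low cells of day 5, against 909 and 926 in P2ry12-high microglia and 883 and 850 in Cd5l-zero cells. The Cd5l+ P2ry12-low cells were lowest in both libraries.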
